A study of Mus musculus with 6 samples.

Results

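The genes described here are 3 families of myeloid surface receptors and their relatives: C-type lectins with a Clec symbol, CD300 molecules and Siglecs. They were taken from the array by name, as every non-control probe whose gene name begins with Clec and a digit, with Cd300 or with Siglec, leaving out Clec9a and Siglech. This gave 43 genes of the 34844 gene names on the array, read by 58 of its 55681 probes. Signal was bright enough for a test in 37 of the 43 genes, among 26178 genes tested in all.

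Inguinal fat, a subcutaneous depot, was taken from male C57BL/6J mice, and its RNA was measured on 6 single-colour arrays, 3 in each of 2 groups. The mice titled DIO_CR_WR were put on a high-fat diet (60% of energy from fat) when 2 months old. After 1 month their calories were restricted for about 3 weeks, until their weight equalled that of chow-fed mice of the same age, and they then ate the high-fat diet freely and regained weight. The mice titled DIO ate chow until that point and the high-fat diet over the same last period, so that both groups ended on the same diet, and the labels name no engineered allele. The study's protocol calls these groups DIO and CTR, and the names here are those of the sample titles. The comparison sets fat with a past of high-fat feeding and restriction against fat that met the high-fat diet once. The labels do not say whether a sample is 1 mouse or a pool, so p-values measure the spread between these samples. The age labels climb by 1 month from sample to sample, from 6 to 11 months, and are higher in every DIO_CR_WR sample.

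C-type lectins bind sugars, lipids or proteins outside the cell through a shared lectin fold. Members such as Mincle (Clec4e), MCL (Clec4d) and dectin-2 (Clec4n) pass a signal inside through the adaptor chain encoded by Fcer1g, which carries an ITAM motif, to the kinase Syk and the adaptor Card9. Others, such as Clec4a4, carry an ITIM motif that recruits the phosphatases Ptpn6 and Inpp5d and restrains the cell. CD300 molecules sense lipids on dying cells and Siglecs sense sialic acid on sugars, and both families again hold activating and inhibitory members. In fat these receptors are known mainly from macrophages and other myeloid cells, and some from endothelium or stroma.

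All levels below are processed signals as a percentage of the 75th percentile of the array, so that 100% is the 75th percentile itself. Log2 fold changes are DIO_CR_WR minus DIO, with standard errors and two-sided p-values from limma's moderated test over all genes. The 3 DIO_CR_WR arrays and DIO array 1 lay on slide 1, DIO arrays 2 and 3 on slide 2, and the scan split the arrays in the same way. Between 52.9% and 66.7% of spots were well above background on the DIO_CR_WR arrays, against 69.1% to 79.7% on the DIO arrays. The lowest signal called well above background was 1.5% to 5.17% of the 75th percentile on the DIO_CR_WR arrays and 0.635% to 1.15% on the DIO arrays, which limits the dim members.

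Each array probe is a 60-base oligo, placed on build mm9 by the array files. The first 30 bases of the probes behind the 9 receptors that stood higher in DIO_CR_WR fat are shown so that the transcript each value stands for can be traced. Positions are those of the whole 60-base probe, with the strand.
Clec4d, chr6:123224788-123224847, plus strand: aggatttgtaaattacctggaataacattc
Clec4e, chr6:123232878-123232937, minus strand: actggatttcacctgtacttgtatctactg
Clec4n, chr6:123196969-123197028, plus strand: gtcttgccctggtttctttctatgaactgc
Clec4a3, chr6:122919637-122919696, plus strand: gccaatggttatacatatgataatactggc
Clec4a4, chr6:122974064-122974123, plus strand: acattcttcatggggatttgatttctttgt
Cd300lb, chr11:114784811-114784870, minus strand: gcatgagtgtataggtgaaggtttcacttt
Cd300c, chr11:114821230-114821731, minus strand: atgaatcccagagtaataagattgtggctg
Siglec1, chr2:130895093-130895152, minus strand: ttttctccattccccaagtgttgcctttga
For Cd300ld (chr11:114843796-114843855, minus strand) bases 31 to 60 are given instead, because they hold a run, in capitals, that other probes share.
Cd300ld: ttataggacTACACAGAGAAAtccaaaaaa
The files give the Cd300c probe a range of 502 bases, longer than the probe itself. The capital run of 12 bases in the Cd300ld probe is found in 15 of the 55681 probes. Among 11 other tested genes whose probes hold it, 0 were higher and 4 were lower at an unadjusted p under 0.05, with log2 fold changes of -0.9 to -0.08. Of all genes tested 5.43% were higher and 21.6% were lower. The count covers 1 exact run of the probe, so it cannot show whether other transcripts add to the Cd300ld signal. Between the probes used for different members, the longest identical run was 10 bases. Likeness with mismatches, or binding of a probe to the transcript of a neighbouring gene, was not tested.

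No member passed an adjusted p of 0.05 in limma, as was true of 0 of the 26178 genes (0% called), and the smallest adjusted p was 0.108. At an unadjusted p under 0.05, 9 of the 37 tested members were higher in DIO_CR_WR fat (24.3%), where 5.43% of all genes tested were higher. They were Cd300ld, Clec4d, Clec4e, Cd300lb, Clec4a3, Clec4a4, Cd300c, Siglec1 and Clec4n, and all 9 were well above background on all 6 arrays. Another 8 members were lower (21.6%), the same share as the 21.6% of all genes that were lower: Clec2e, Clec18a, Cd300lh, Clec4f, Clec2l, Clec1b, Siglec15 and Siglece. The lower count therefore does not set these receptors apart from the rest of the array. Of these 8, Clec18a, Cd300lh and Clec4f were well above background on 2 of the 3 DIO_CR_WR arrays and Clec2l and Siglec15 on 1, so that they passed the filter on dim probes through the DIO arrays. In 10 members every DIO_CR_WR array stood above every DIO array, where 7.25% of all genes did so, and in 8 members every array stood below, where 26.5% did. The median log2 fold change was 0.22 over the tested members and -0.20 over all genes, and 25 of the 37 members lay above the median of all genes.

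When slide was added to the fit as a block, 13 members were higher, where 4.67% of all genes were, and 2 were lower, where 5.88% were. Slide 2 held only DIO arrays, so this fit sets the 3 DIO_CR_WR arrays against DIO array 1 alone. Its log2 fold changes are the same as those within slide 1. Of the 9 higher receptors 8 were again higher in the slide-blocked fit, Siglec1 being the exception. Of the 8 lower receptors only Clec2e was again lower. Scaling to the E1A spike-in probes in place of the 75th percentile moved the median of all genes to 0.27 and gave 21 members higher and 0 lower, where 19% of all genes were higher and 3.46% lower. The 9 higher receptors were among the 21. The age labels do not overlap between groups and climb in the order in which the samples are listed, so it is not settled that they are true ages. With that label as a covariate 3 of the 9 were still called, namely Cd300ld, Clec4a4 and Clec4e, where 4.63% of all genes were higher. The log2 fold changes of the other 6 were then 0.37 for Clec4n, 0.45 for Cd300c, 0.79 for Siglec1, 0.93 for Clec4d, 1.0 for Cd300lb and 1.02 for Clec4a3. Without DIO array 1, when each slide held 1 group, 4057 genes and 9 members had an adjusted p under 0.05 in limma, so that slide and group could then not be told apart. Without DIO array 3 the count of higher members was 15, with Clec10a, Clec14a, Clec1a, Clec4a1, Clec4b1 and Clec7a added, where 5.94% of all genes were higher. The counts given below for groups of receptors, partner genes and markers stand against the 5.43% of all genes that were higher and the 21.6% that were lower, and the groups are small.

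**Figure D1:**
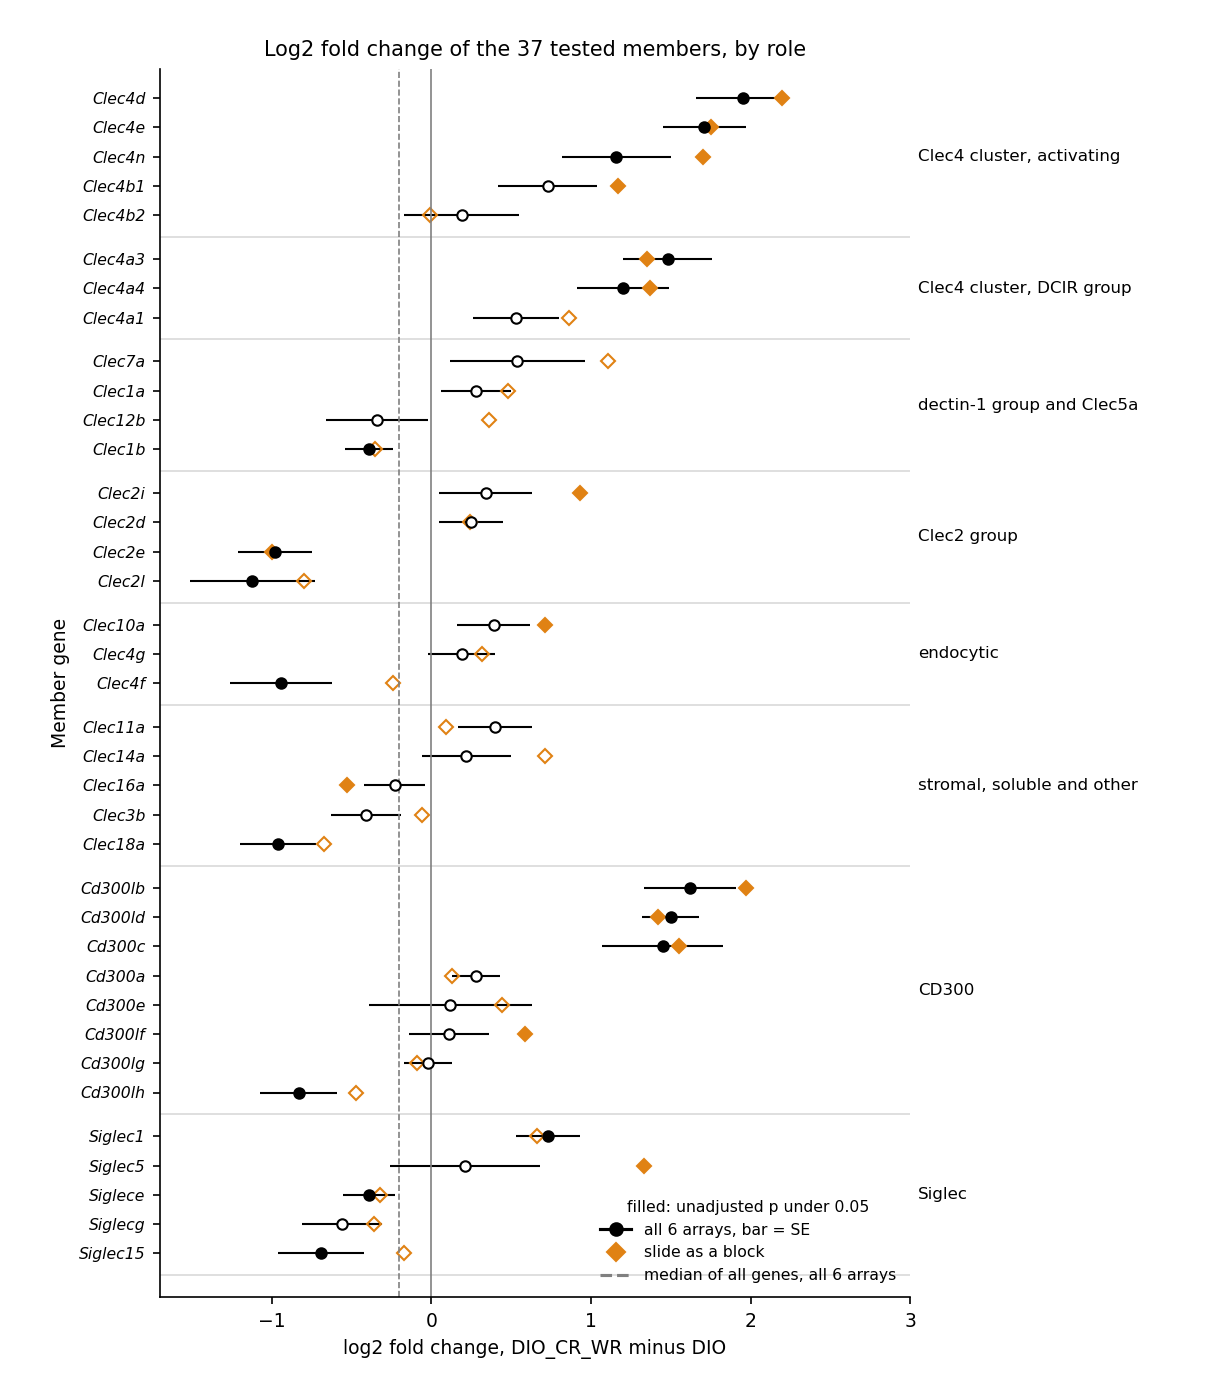
Log2 fold change (DIO_CR_WR minus DIO) of the 37 tested members on the horizontal axis, grouped by role; circles with bars are the fit of all 6 arrays with its standard error, diamonds the slide-blocked fit, filled where the unadjusted p is under 0.05. In the fit of all 6 arrays Clec4d lies farthest to the right at 1.95 and Clec2l, which was well above background on only 1 DIO_CR_WR array, farthest to the left at -1.12. Clec12b and Siglecg were well above background on no DIO_CR_WR array.

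The activating lectins of the Clec4 cluster held the largest of these differences, with 3 of 5 tested genes higher and 0 lower. Clec4d encodes MCL, a receptor for mycobacterial cord factor that pairs with Mincle. Its signal was 113%, 134% and 163% of the 75th percentile on the DIO_CR_WR arrays, against 29.4%, 27.8% and 52.5% on the DIO arrays. The groups did not overlap, and the highest DIO array was array 3. The fold change was 3.87, or 1.95 ± 0.29 on the log2 scale (SE), with adjusted p = 0.108 in limma. Since whole fat was measured, more cells of a type and more RNA per cell cannot be told apart for this or any other gene here.

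Clec4e encodes Mincle, which binds cord factor and a nuclear protein released by dying cells. It gave 12.5%, 10.2% and 13.8% in DIO_CR_WR fat, against 3.6%, 5.15% and 2.75% in DIO fat. Every DIO_CR_WR array was above every DIO array, by 3.26-fold on average (log2 1.71 ± 0.26, adjusted p = 0.108 in limma). Clec4n encodes dectin-2, a receptor for fungal mannans. It reached 41.1%, 30% and 35.7% in DIO_CR_WR fat, against 10.9%, 13.9% and 26.0% in DIO fat. DIO array 3 came close to the lowest DIO_CR_WR array without passing it. The log2 fold change was 1.16 ± 0.34 over all arrays (adjusted p = 0.131 in limma), 1.70 within slide 1, 1.52 without DIO array 3, 0.90 without DIO array 1 and 0.37 with the age label as a covariate.

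The remaining 2 genes of this group encode relatives of the dendritic cell activating receptor DCAR. Clec4b1 gave 46.7%, 53.0% and 41.2% in DIO_CR_WR fat, against 20.8%, 23.9% and 45.4% in DIO fat. DIO array 3 fell within the DIO_CR_WR range, and the log2 fold change of 0.73 ± 0.31 had adjusted p = 0.197 in limma, and with slide blocked it was 1.17 at an unadjusted p under 0.05. A second Clec4b1 probe gave 41.3%, 49.4% and 28.9% in DIO_CR_WR fat, against 18.7%, 4.72% and 9.54% in DIO fat. On that probe the groups did not overlap, and the log2 fold change was 2.04 ± 0.50 (adjusted p = 0.129 in limma over all probes). Clec4b2 overlapped between groups, with 54.2% ± 21.5 in DIO_CR_WR fat and 45.0% ± 8.4 in DIO fat (SD, n = 3 each). DIO_CR_WR array 1 was the lowest of all 6 arrays for Clec4b2 at 29.6%, and without it the log2 fold change was 0.58, at an unadjusted p under 0.05, in place of 0.19.

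In the DCIR group of the same cluster 2 of 3 tested genes were higher. Clec4a3, or DCIR3, a lectin without an ITIM motif, gave 209%, 235% and 259% in DIO_CR_WR fat, against 91.8%, 55.7% and 113% in DIO fat. The groups were clearly apart, with a fold change of 2.80 (log2 1.48 ± 0.28, adjusted p = 0.11 in limma). Clec4a4, or DCIR2, is an inhibitory lectin of dendritic cells. It was dim, at 6.48%, 4.92% and 3.1% in DIO_CR_WR fat, against 1.79%, 1.97% and 2.33% in DIO fat. DIO_CR_WR array 3 was nearest to the DIO range, and the log2 fold change was 1.20 ± 0.29 (adjusted p = 0.122 in limma). The lowest signal called well above background on DIO_CR_WR array 1 was 5.17%. Clec3a, well above background on no array, read 1.18%, 0.476% and 0.348% on the DIO_CR_WR arrays, against 0.237%, 0.188% and 0.135% on the DIO arrays. Whether such an offset near background adds to the Clec4a4 difference was not tested.

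Clec4a1, or DCIR4, gave 200%, 224% and 204% in DIO_CR_WR fat, against 115%, 122% and 217% in DIO fat. DIO array 3 lay among the DIO_CR_WR arrays, and the log2 fold change of 0.53 ± 0.27 had adjusted p = 0.247 in limma. Without DIO array 3 it was 0.82, at an unadjusted p under 0.05, and within slide 1 it was 0.86. Clec4a2, the inhibitory DCIR1, was not well above background on any DIO_CR_WR array and on 2 of the DIO arrays, and was not tested. It read 1.43%, 0.658% and 0.562% on the DIO_CR_WR arrays and 0.279%, 0.955% and 1.21% on the DIO arrays, so no fold is given.

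**Figure D2:**
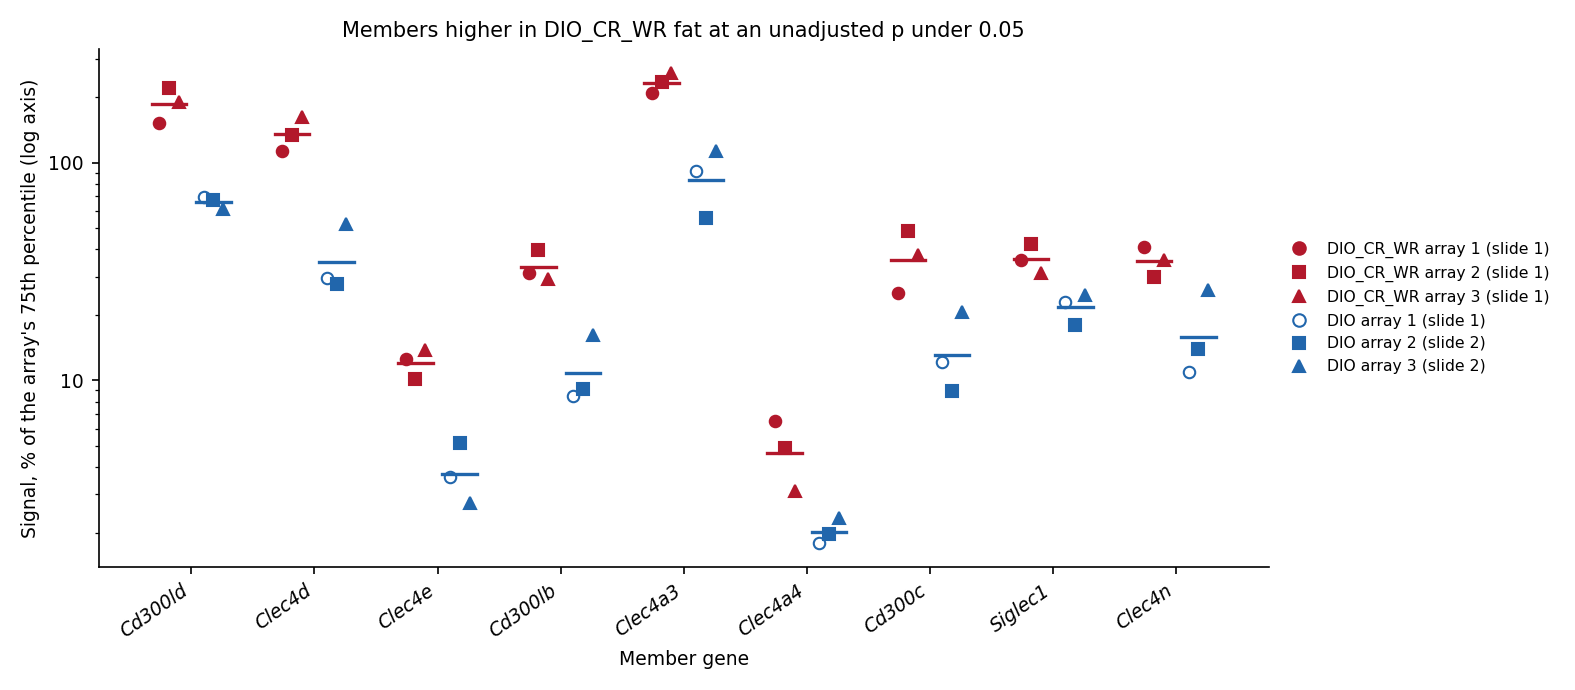
Signal of the 9 receptors that were higher in DIO_CR_WR fat at an unadjusted p under 0.05, as a percentage of each array's 75th percentile on a log axis; points are arrays, lines geometric means, and the open circle is the DIO array on slide 1. For each gene the 3 DIO_CR_WR points lie above the 3 DIO points, and DIO array 3 is the highest DIO array for Clec4d, Cd300lb, Clec4a3, Clec4a4, Cd300c, Siglec1 and Clec4n.

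Clec4f lies elsewhere on chromosome 6, with a log2 fold change of -0.94, and is described below. The 8 tested genes of the Clec4 cluster on that chromosome lie next to each other within 348 kb on mm9, with 0 other tested genes between them. All 8 had a positive log2 fold change, with a median of 1.18, though for Clec4b2 the value was -0.01 with slide blocked, and 5 of the 8 passed an unadjusted p of 0.05. The 7 tested members of the Clec2 and dectin-1 cluster farther along chromosome 6 had a median of 0.25, with 0 higher and 2 lower. In the Cd300 cluster of chromosome 11, which spans 212 kb, 3 members in a row were higher and the next, Cd300lh, was lower, with 3 other tested genes lying within the cluster. Clec4d and Clec4e, which lie side by side in opposite directions, moved by similar amounts, and the 250 bases before their RefSeq start sites are shown for that reason. Capitals mark matches to the core of the PU.1 motif (GAGGAA) and to a C/EBP motif (TTNNGNAA) on either strand, none of which overlap.
Clec4d, GRCm38.p6 chr6:123261857-123262106, plus strand: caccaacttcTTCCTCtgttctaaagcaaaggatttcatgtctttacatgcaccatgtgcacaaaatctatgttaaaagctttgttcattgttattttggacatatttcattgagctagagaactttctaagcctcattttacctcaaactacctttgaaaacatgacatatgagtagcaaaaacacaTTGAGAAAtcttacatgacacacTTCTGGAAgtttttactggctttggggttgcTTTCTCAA
Clec4e, GRCm38.p6 chr6:123289872-123290121, minus strand: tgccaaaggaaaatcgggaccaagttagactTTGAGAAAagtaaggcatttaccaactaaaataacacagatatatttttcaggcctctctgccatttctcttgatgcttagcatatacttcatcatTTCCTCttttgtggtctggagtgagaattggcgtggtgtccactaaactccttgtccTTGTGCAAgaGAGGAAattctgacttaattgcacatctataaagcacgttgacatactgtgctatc
PU.1 and C/EBP are factors of myeloid gene control. Of 32851 mouse promoters of this length, 23.3% held the PU.1 core and 36.8% the C/EBP motif. Of the 9 higher receptors 6 had a promoter in the table, and 4 of the 6 held each motif: Clec4d, Clec4e and Cd300ld held both, Clec4a3 only the first, in 1 of its 2 promoters, and Cd300c only the second. Over all 28 members with a promoter 18 held the PU.1 core and 16 the C/EBP motif. The shares of all promoters count promoters, while those of the members count genes. The AP-1 motif TGANTCA was in 0 of the 6 and in 6.7% of all promoters, and an NF-kB motif was in 1 of the 6, that of Cd300lb, and in 4.1% of all.

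**Figure D3:**
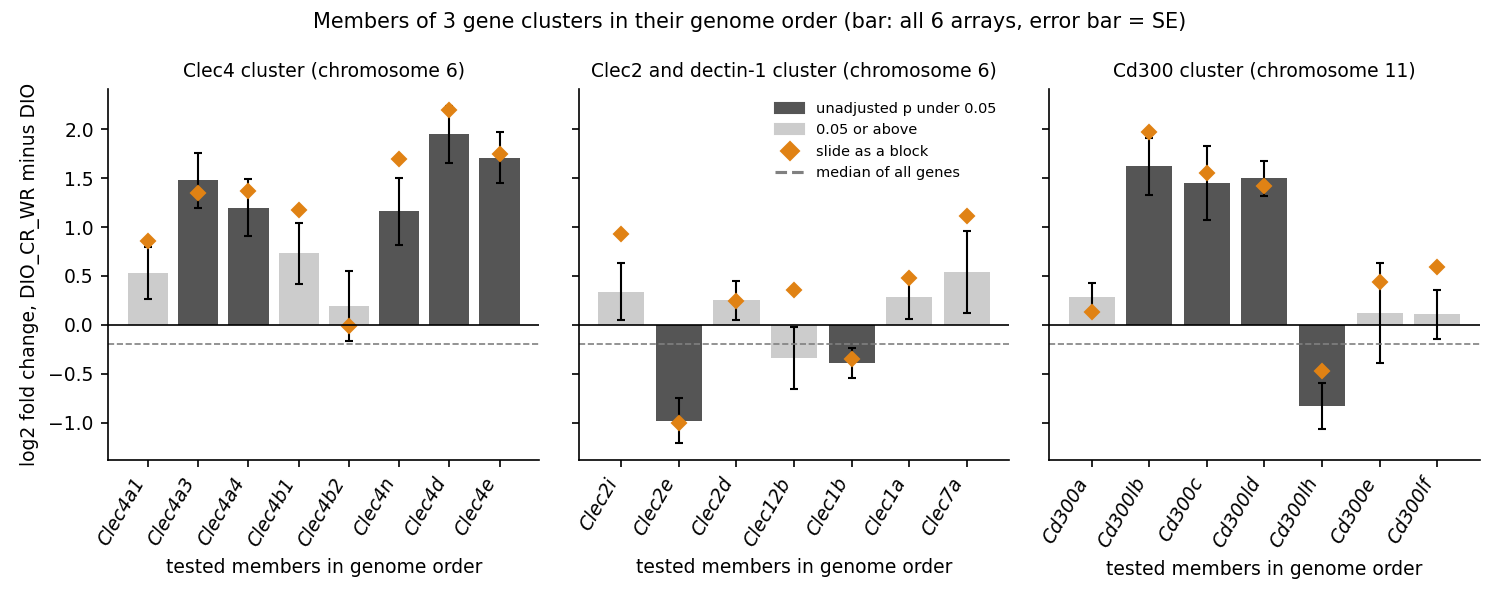
Log2 fold change (vertical axis, DIO_CR_WR minus DIO) of the tested members of 3 gene clusters, in their order along the chromosome; bars are the fit of all 6 arrays with its standard error, dark where the unadjusted p is under 0.05, and diamonds the slide-blocked fit. All bars of the Clec4 cluster point up, with Clec4d and Clec4e at 1.95 and 1.71, while the other clusters hold bars of both signs.

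CD300 genes were split. Of 8 tested, 3 were higher and 1 was lower. Cd300ld, an activating member that signals through the Fcer1g chain, gave 153%, 221% and 191% in DIO_CR_WR fat, against 69.8%, 67.1% and 61.1% in DIO fat. The 3 DIO arrays differed little from each other and lay far below all DIO_CR_WR arrays. The fold change of 2.83 (log2 1.5 ± 0.18) had the smallest p of all members at 0.000129, with adjusted p = 0.108 in limma. Cd300ld passed an adjusted p of 0.05 when only probes with signal on all 6 arrays were tested, as 1 of 63 genes, and with a trended and robust variance, as 1 of 26.

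Cd300lb, an activating receptor that uses the DAP12 chain encoded by Tyrobp, gave 31.3%, 39.7% and 29.2% in DIO_CR_WR fat, against 8.48%, 9.15% and 16.1% in DIO fat. The groups were apart, with array 3 the highest in DIO fat, and the fold change was 3.07 (log2 1.62 ± 0.29, adjusted p = 0.11 in limma). Cd300c, another activating member, gave 25.1%, 48.7% and 37.7% in DIO_CR_WR fat, against 12.2%, 8.94% and 20.6% in DIO fat. DIO_CR_WR array 1 and DIO array 3 were the nearest pair, and the log2 fold change was 1.45 ± 0.38 (adjusted p = 0.124 in limma).

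Cd300lh, the gene also known as CLM-3, went the other way. It gave 5.17%, 7.37% and 6.78% in DIO_CR_WR fat, against 8.84%, 14.2% and 11.5% in DIO fat. The groups did not overlap, the signal on 1 DIO_CR_WR array was not well above background, and the log2 fold change of -0.83 ± 0.24 (adjusted p = 0.13 in limma) was -0.47 with slide blocked and no longer passed an unadjusted p of 0.05. Cd300a, an inhibitory receptor for phosphatidylserine, gave 168%, 162% and 161% in DIO_CR_WR fat, against 150%, 137% and 120% in DIO fat. No arrays overlapped, but the log2 fold change of 0.28 ± 0.15 had adjusted p = 0.274 in limma. The Cd300a probe shares runs of 14 bases with probes of 25 other genes, which leaves its reading uncertain. The Cd300ld probe holds the shorter run of 12 bases described above, found in 15 probes of the array. Likeness with mismatches was not tested, so exact runs cannot show that the readings of the neighbours are more certain.

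Cd300lf, an inhibitory member, averaged 12.2% ± 1.43 in DIO_CR_WR fat and 11.5% ± 3.17 in DIO fat (SD, n = 3 each). Its 3 probes gave log2 fold changes of 0.11, 0.19 and 0.81, and with slide blocked the first was 0.59, at an unadjusted p under 0.05. Cd300e, an activating receptor of monocytes, averaged 8.86% ± 5.62 in DIO_CR_WR fat and 7.06% ± 1.42 in DIO fat, with DIO_CR_WR arrays 2 and 3 the highest and lowest of all 6. Cd300lg, or nepmucin, an endothelial member that binds lymphocytes, was nearly level at 114% ± 12.0 in DIO_CR_WR fat and 115% ± 5.24 in DIO fat, a log2 fold change of -0.02 ± 0.15. Its sign turned to 0.07 with arrays centred on the median, to 0.26 after normexp and to 0.44 after spike-in scaling.

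Among Siglecs 1 of 5 tested genes was higher and 2 were lower. Siglec1, or sialoadhesin, marks subsets of macrophages. It gave 35.6%, 42.2% and 31.3% in DIO_CR_WR fat, against 22.9%, 18% and 24.8% in DIO fat. The groups did not overlap and the log2 fold change was 0.73 ± 0.20 (adjusted p = 0.126 in limma), while with slide blocked it was 0.66 and did not pass an unadjusted p of 0.05. A second Siglec1 probe, with at most 4.47% of the 75th percentile, gave -0.18 ± 0.50. With the probes of a gene averaged, Siglec1 had 0.28 and did not pass an unadjusted p of 0.05.

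Siglece, an inhibitory Siglec of myeloid cells, gave 62.7%, 76.8% and 76.7% in DIO_CR_WR fat, against 89.4%, 99.9% and 93.0% in DIO fat. All DIO_CR_WR arrays were lower, by a log2 fold change of -0.39 ± 0.16 (adjusted p = 0.177 in limma), which was 0.07 under spike-in scaling. Siglec15, known from osteoclasts and some tumour macrophages, gave 1.82%, 1.67% and 1.85% in DIO_CR_WR fat, against 2.0%, 2.87% and 4.11% in DIO fat. It was well above background on only 1 DIO_CR_WR array, and its log2 fold change of -0.69 ± 0.27 was -0.17 within slide 1. Siglecg, an inhibitory Siglec of B cells, was not well above background on any DIO_CR_WR array. It read 1.25%, 0.867% and 1.44% there, against 1.49%, 1.6% and 2.11% on the DIO arrays, and no fold is given.

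The eosinophil Siglec, listed on the array as Siglec5 and now named Siglecf, gave 10.7%, 9.95% and 8.05% in DIO_CR_WR fat, against 3.79%, 10.8% and 13.4% in DIO fat. DIO array 1 was far below all other arrays, while DIO arrays 2 and 3 matched or passed the DIO_CR_WR arrays. The log2 fold change was therefore 0.21 ± 0.47 over all arrays, 1.33 within slide 1 and -0.34 without DIO array 1. Of 7 eosinophil markers 0 were higher and 1, Il5ra, was lower at -0.44 ± 0.17.

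In the dectin-1 group 0 of 4 tested genes were higher and 1 was lower, and with slide blocked 0 passed an unadjusted p of 0.05 in either direction. Clec7a encodes dectin-1, the receptor for fungal beta-glucan, and has its own ITAM-like motif. It gave 86.1%, 138% and 90.8% in DIO_CR_WR fat, against 47.4%, 56.1% and 131% in DIO fat. DIO array 3 lay near the top of all 6, and the log2 fold change of 0.54 ± 0.42 was 0.99 without that array, at an unadjusted p under 0.05. Clec1a, an endothelial and myeloid lectin, averaged 35.8% ± 0.9 in DIO_CR_WR fat and 30.3% ± 8.89 in DIO fat, with DIO array 3 again the highest at 40.6%.

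Clec1b encodes CLEC-2, the platelet receptor for podoplanin. It gave 22.5%, 27.6% and 25.3% in DIO_CR_WR fat, against 31.9%, 31.6% and 35.4% in DIO fat. The groups did not overlap on this probe (log2 -0.39 ± 0.15, adjusted p = 0.169 in limma), but 2 further Clec1b probes gave 0.04 ± 0.27 and 0.20 ± 0.29, and spike-in scaling turned the first to 0.07. Of 6 tested platelet and megakaryocyte markers 0 were higher and 1 was lower. Podoplanin itself (Pdpn) gave 269%, 227% and 246% in DIO_CR_WR fat, against 155%, 222% and 223% in DIO fat, without overlap but with a log2 fold change of 0.32 ± 0.20 and adjusted p = 0.322 in limma.

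Clec12b, an inhibitory lectin, was well above background on no DIO_CR_WR array and on all 3 DIO arrays. It read 1.58%, 1.92% and 1.41% on the DIO_CR_WR arrays, against 1.26%, 2.78% and 2.44% on the DIO arrays, with overlap. The difference of these readings, which are not levels in DIO_CR_WR fat, was -0.34 on the log2 scale over all arrays and 0.36 within slide 1. Clec12a, an inhibitory receptor for uric acid crystals, was well above background on 1 DIO array alone, at 7.48%. Clec5a, or MDL-1, which uses DAP12, was well above background on 1 DIO_CR_WR array alone, at 7.33%. On the other DIO_CR_WR arrays Clec5a read 0.445% and 0.334%, and on the DIO arrays 0.24%, 0.491% and 0.137%, so no fold is given.

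In the Clec2 group, whose products are ligands of Klrb1 receptors on natural killer cells, 0 of 4 tested genes were higher and 2 were lower. Clec2e gave 7.9%, 6.12% and 4.43% in DIO_CR_WR fat, against 12.0%, 12.0% and 11.3% in DIO fat. The DIO arrays were nearly equal and all above the DIO_CR_WR arrays, with a log2 fold change of -0.98 ± 0.23 (adjusted p = 0.12 in limma) and -1 within slide 1. Clec2l, known from brain, gave 1.13%, 1.66% and 3.17% in DIO_CR_WR fat, against 3.16%, 4.76% and 4.04% in DIO fat. The groups touched at DIO_CR_WR array 3 and DIO array 1, and Clec2l was well above background on only 1 DIO_CR_WR array. Its log2 fold change of -1.12 ± 0.39 (adjusted p = 0.147 in limma) therefore rests on readings near background.

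Clec2d encodes Clr-b, which inhibits natural killer cells, and averaged 124% ± 28.7 in DIO_CR_WR fat and 103% ± 4.51 in DIO fat. DIO_CR_WR array 3, at 157%, held the difference, for without it the log2 fold change was 0.06. Clec2i, or Clr-g, averaged 11.9% ± 0.969 in DIO_CR_WR fat and 9.8% ± 3.52 in DIO fat, with DIO array 1 the lowest at 6.22%. Its log2 fold change was 0.34 ± 0.29, and with slide blocked 0.93 at an unadjusted p under 0.05. Clec2g was well above background on no DIO_CR_WR array and on 2 DIO arrays, with 1.1%, 0.954% and 0.654% in DIO_CR_WR fat, against 0.543%, 1.22% and 1.36% in DIO fat. Clec2h was not well above background on any array.

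Of 3 tested endocytic lectins 0 were higher and 1 was lower. Clec10a, or CD301a, is a receptor for galactose-type sugars and a common marker of resident and alternatively activated macrophages. It gave 368%, 331% and 417% in DIO_CR_WR fat, against 226%, 268% and 372% in DIO fat. DIO array 3 overlapped with the DIO_CR_WR arrays, and the log2 fold change of 0.39 ± 0.23 was 0.71 with slide blocked, at an unadjusted p under 0.05. Its close relative Mgl2 (CD301b) stood the other way at -0.52 ± 0.19, with 645%, 681% and 663% in DIO_CR_WR fat, against 765%, 947% and 1180% in DIO fat. These groups did not overlap, and the Mgl2 value was -0.21 with slide blocked.

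Clec4f, a lectin of liver Kupffer cells, gave 5.06%, 4.3% and 5.46% in DIO_CR_WR fat, against 5.81%, 13.4% and 10.7% in DIO fat. DIO array 1, on the slide of the DIO_CR_WR arrays, lay close to them, and the log2 fold change of -0.94 ± 0.32 (adjusted p = 0.145 in limma) was -0.24 within slide 1. Clec4g, a liver sinusoidal lectin, was dim at 3.36% ± 0.421 in DIO_CR_WR fat and 2.98% ± 0.693 in DIO fat, with overlap.

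**Figure D4:**
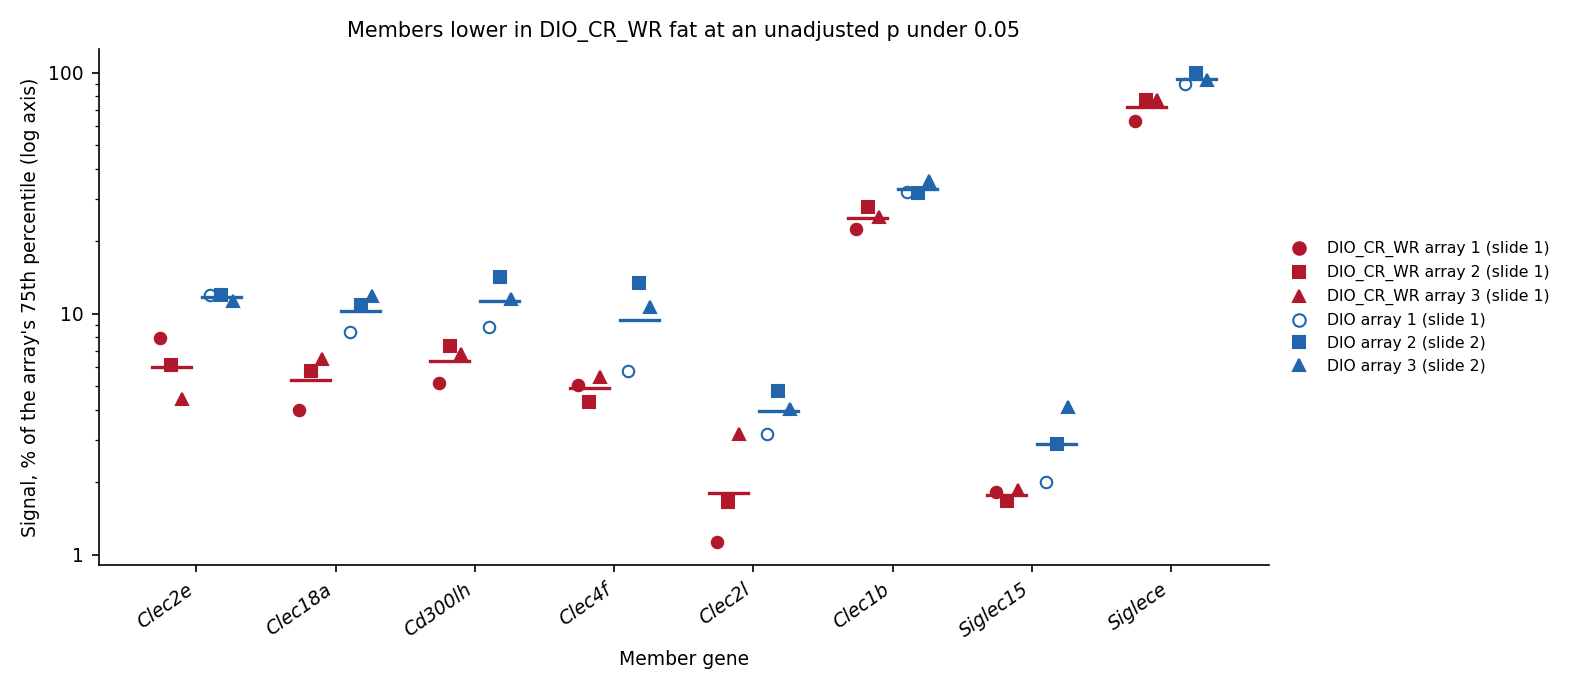
Signal of the 8 receptors that were lower in DIO_CR_WR fat at an unadjusted p under 0.05, drawn as in the plot of the higher receptors, on a log axis. The open circle, the DIO array on slide 1, lies nearest to the DIO_CR_WR points for Clec18a, Cd300lh, Clec4f, Clec2l, Siglec15 and Siglece, and Clec2e is the gene with the tightest DIO points.

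Among stromal, soluble and other Clec genes 0 of 5 tested were higher and 1 was lower. Clec18a, a secreted lectin, gave 3.97%, 5.77% and 6.47% in DIO_CR_WR fat, against 8.41%, 10.9% and 11.8% in DIO fat. No arrays overlapped, and 2 further probes pointed the same way at -0.50 and -0.51, beside -0.96 ± 0.24 (adjusted p = 0.123 in limma). With slide blocked the first value was -0.67 and did not pass an unadjusted p of 0.05. Clec3b, or tetranectin, a plasminogen-binding protein of the matrix, gave 289%, 251% and 239% in DIO_CR_WR fat, against 269%, 336% and 448% in DIO fat. DIO array 1 lay within the DIO_CR_WR range, and the log2 fold change of -0.41 ± 0.22 was -0.06 within slide 1 and 0.05 under spike-in scaling.

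Clec11a, or osteolectin, a growth factor made by stromal cells, gave 47.5%, 54.9% and 40.3% in DIO_CR_WR fat, against 44.2%, 27.9% and 37.3% in DIO fat. DIO array 1 overlapped with the DIO_CR_WR arrays, and the log2 fold change of 0.40 ± 0.23 was 0.09 within slide 1. Clec14a, an endothelial receptor for Mmrn2, averaged 53.4% ± 4.18 in DIO_CR_WR fat and 47.9% ± 17.9 in DIO fat. DIO arrays 1 and 3 were the lowest and highest of all 6 for Clec14a, at 32.5% and 67.6%. Clec16a, an endosomal protein of mitophagy that is a lectin in name more than in function, averaged 106% ± 8.03 in DIO_CR_WR fat and 125% ± 24.5 in DIO fat. Its log2 fold change was -0.23 ± 0.19, -0.53 with slide blocked at an unadjusted p under 0.05, and 0.24 under spike-in scaling. Clec3a, a cartilage protein, was not well above background on any array.

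The partners of these receptors were looked at as lists. Of 21 tested genes of ITAM signalling 4 were higher and 2 were lower, with a median log2 fold change of 0.29. Fgr, a Src family kinase of myeloid cells, gave 15.1%, 16.3% and 11.8% in DIO_CR_WR fat, against 5.21%, 7.34% and 6.03% in DIO fat. The groups lay well apart (log2 1.22 ± 0.20, adjusted p = 0.108 in limma). The adaptor Lcp2, or SLP-76, was higher by 0.93 ± 0.21, also with no overlap. Lyn at 0.68 ± 0.22 and Vav3 at 0.63 ± 0.23 were also higher, while Src at -0.73 ± 0.24 and Nfatc1 at -0.51 ± 0.21 were lower.

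The chains that carry the receptors' signal passed no unadjusted p of 0.05 in the fit of all arrays. Fcer1g gave 872%, 1050% and 760% in DIO_CR_WR fat, against 645%, 669% and 876% in DIO fat. DIO array 3 overlapped with the DIO_CR_WR arrays (log2 0.29 ± 0.20, adjusted p = 0.374 in limma). Tyrobp gave 809%, 1260% and 832% in DIO_CR_WR fat, against 549%, 787% and 1270% in DIO fat, with DIO array 3 the highest of all (0.21 ± 0.35). Card9 had 0.04 ± 0.28, and Syk had no probe under that name here. With slide blocked, against DIO array 1 alone, the values were 0.46 for Fcer1g, 0.79 for Tyrobp and 0.62 for Card9.

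Of 5 ITIM phosphatases and adaptors 2 were higher and 0 were lower. Ptpn6, or SHP-1, gave 218%, 235% and 199% in DIO_CR_WR fat, against 101%, 133% and 124% in DIO fat, without overlap (log2 0.87 ± 0.17, adjusted p = 0.112 in limma). Inpp5d, or SHIP1, gave 131%, 131% and 126% in DIO_CR_WR fat, against 75.4%, 30.5% and 35% in DIO fat. DIO array 1 was the highest DIO array for Inpp5d, and the log2 fold change of 1.58 ± 0.35 was 0.78 with slide blocked. Csk, the kinase that restrains Src kinases, overlapped between groups, with a log2 fold change of 0.36 ± 0.20.

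Of 12 tested genes listed as ligands or counter-receptors, known or possible, 4 were higher and 0 were lower. Binding was not measured. Klrb1a, Klrb1c and Klrb1f belong to the Klrb1 family, of which some members, not all, are known to bind Clec2 products. They were higher by 1.16 ± 0.20, 1.51 ± 0.29 and 1.69 ± 0.38, each with no overlap. Klrb1f was well above background on only 2 arrays of each group. Klrb1b, of the same family, overlapped between groups at 0.27 ± 0.16. Il4ra was higher by 0.71 ± 0.18. Among 19 tested genes of sialic acid synthesis and transfer 3 were higher and 4 were lower, with St8sia4 at 1.39 ± 0.20, St3gal6 at -0.76 ± 0.19 and St3gal4 at 0.62 ± 0.19 the 3 with the smallest p. Among 25 tested lectins and Siglecs under other symbols 7 were higher and 2 were lower. The lectins Mrc2 (1.20 ± 0.19), Cd209a (0.72 ± 0.16) and Mrc1 (0.67 ± 0.15) had the smallest p in that list, each with no overlap, while Olr1 had the highest log2 fold change at 1.81 ± 0.41.

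**Figure D5:**
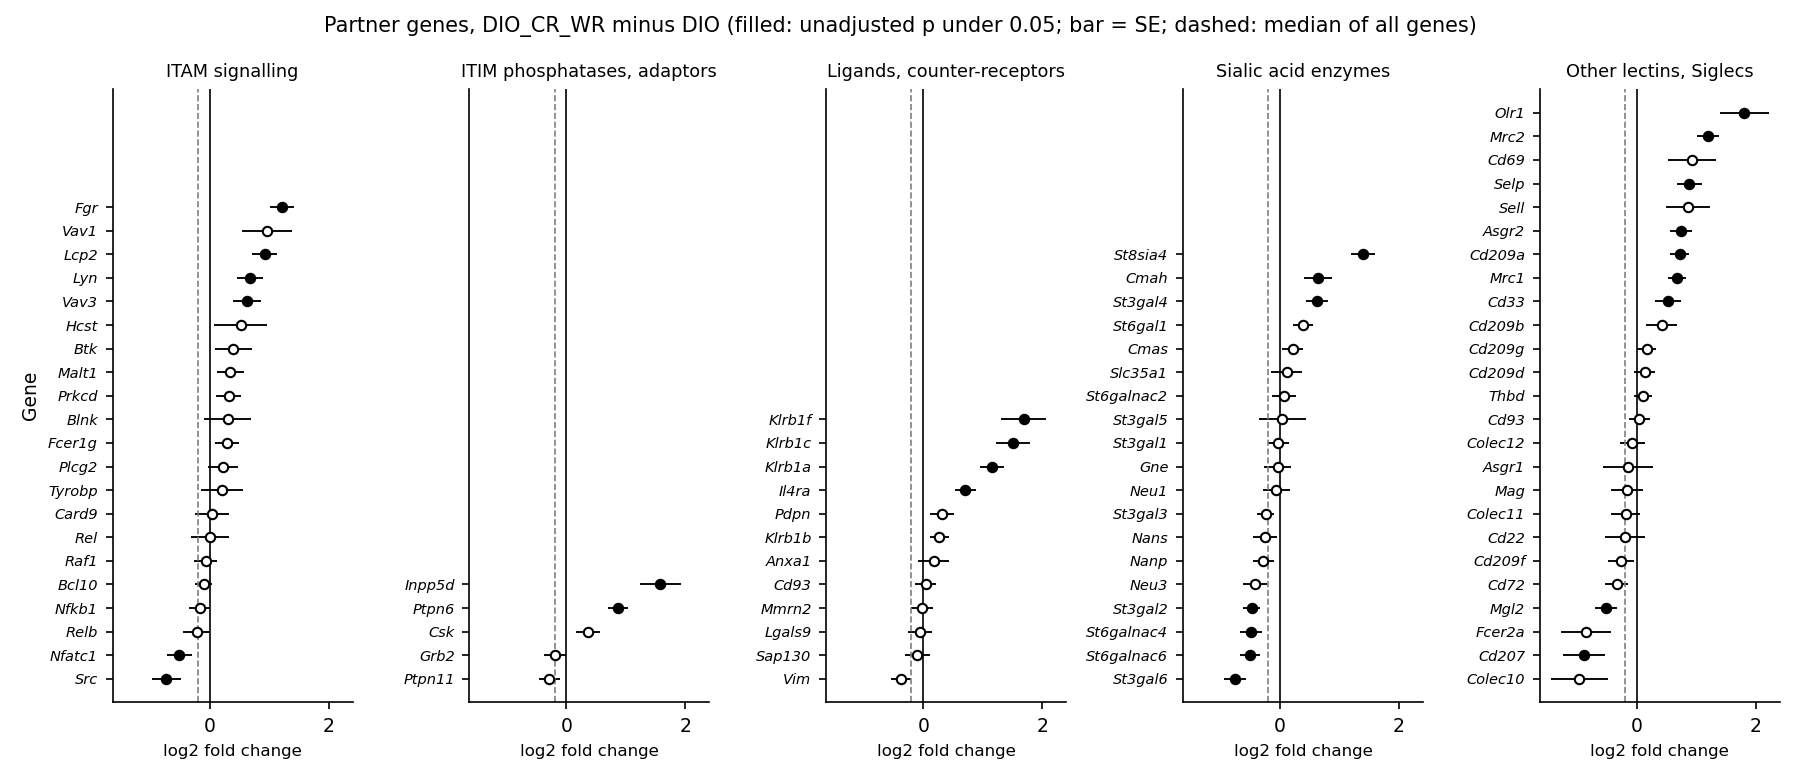
Log2 fold change (horizontal axis, DIO_CR_WR minus DIO) with standard error of the tested genes in the 5 partner lists, filled where the unadjusted p is under 0.05, with the median of all genes as a dashed line. Fgr, Inpp5d, Klrb1f, St8sia4 and Olr1 stand at the top of their lists at 1.22, 1.58, 1.69, 1.39 and 1.81, and Fcer1g, Tyrobp and Card9 lie at 0.29, 0.21 and 0.04 in this fit of all 6 arrays.

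Markers of cell types that could carry these receptors were measured beside them. Of 10 tested macrophage markers 1, Mrc1, was higher and 0 were lower, and their summed signal was 5750% to 6870% in DIO_CR_WR fat and 5120% to 7890% in DIO fat. Their median log2 fold change was 0.24, which is 0.43 above that of all genes, beside 0.42 for the receptors. With slide blocked, against DIO array 1 alone, all 10 were positive, from 0.04 for Itgam to 0.87 for Fcgr1. DIO array 1 had the lowest macrophage sum of all 6 arrays, at 5120%. The highest macrophage sum was on DIO array 3, the array that was highest in DIO fat for 7 of the 9 higher receptors. The largest parts of that sum were Itgam at 2700% and Cd68 at 1570%. Over all 6 arrays their log2 fold changes were -0.21 ± 0.25 and -0.22 ± 0.32, so the sum is weighted to markers that were not higher. Of 8 dendritic cell markers 4 were higher and 1 was lower, with sums of 1210% to 1240% in DIO_CR_WR fat and 1270% to 1580% in DIO fat. Most of that sum was Siglech, the marker that was lower, and the median of the list was 0.44, or 0.64 above that of all genes. Of 9 neutrophil markers 2 were higher and 3 lower, with sums of 1830% to 2050% in DIO_CR_WR fat and 1920% to 1990% in DIO fat. T and NK cell markers were higher for 5 of 9 genes and lower for 0, and their sums did not overlap, at 229% to 284% in DIO_CR_WR fat and 145% to 220% in DIO fat. The adipocyte markers Adipoq, Plin1, Fabp4, Lipe, Cidec, Pparg and Lpl were well above background on all 6 arrays, with 0 higher and 1 lower. Of 8 endothelial markers 2 were higher and 0 lower, of 6 tested mast cell markers 2 and 0, of 4 tested B cell markers 1 and 1, and of 5 tested lymph node stroma markers 2 and 2. The B cell marker Cd79a was too dim to test. Of 6 skeletal muscle markers 0 were higher and 2, Ckm at -0.54 ± 0.16 and Myh4 at -0.43 ± 0.16, were lower. The muscle sums did not overlap, at 7490% to 10200% in DIO_CR_WR fat and 11100% to 13200% in DIO fat. Of 7 markers of adipose progenitors and fibroblasts 1 was higher and 0 lower, and of 5 tested keratinocyte and mammary markers 0 and 1. The part of these cell types in the receptor differences was not tested.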

How the data were processed

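The authors' Agilent Feature Extraction files hold a processed intensity per spot: per the file headers, a local background with a spatial trend was subtracted, and arrays were not normalized against each other. The submitters' processing notes give Feature Extraction 10.7.1.1 and the file headers 10.7.3.1, for array design 028005 on build mm9. The deposited files also hold the unprocessed intensity, the local background and, as other values, flags of 0 or 1 per spot. A series table with 18 columns of sample values was not used, as its headers use the protocol's group names, which clash with the titles.

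Spots with an outlier flag on the feature were set aside and log2 intensity was scaled by each array's 75th percentile. Probes well above background on at least 3 of 6 arrays were kept (38744, of which 286 were left out for an outlier flag), and each gene took its brightest probe. DIO_CR_WR and DIO were compared with limma 3.58.1 in R 4.3.3 (moderated test, two-sided, p adjusted by Benjamini-Hochberg across every gene tested). The fit was tested on simulated data. Figures were drawn with matplotlib 3.10.9. Precision is limited by the number of arrays.

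No label states a pairing. Deviations of same-numbered arrays from their group means correlated across genes at -0.01, -0.12 and -0.24, so numbers were not treated as pairs. The members, roles and lists were chosen with earlier results of these data known. Values per array are given for the 24 members with the smallest p, the 5 brightest and those below background in 1 group, and for others where 1 array decides. The 3 genes with the smallest p of each partner list and Syk, Card9, Fcer1g, Tyrobp, Ptpn6 and Pdpn are always named, and further partner or marker genes that pass an unadjusted p of 0.05 were picked after their values were seen. Some genes of these lists are not reported here and were left out of the list counts. The alternatives were quantile normalization alone or after normexp (offset 50), median centring, spike-in scaling, no filter or a stricter filter on dim probes, every probe or their mean, a trended and robust variance, replicate number, slide or age in the fit, slide 1 alone, and leaving out each array. Symbols were checked against RefSeq (GRCm38.p6): 52 of the 58 probes matched a current gene, and the others keep the array's name. Promoters are RefSeq's, on the same build.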

Additional observations from a re-analysis of the deposited data

How the results depend on the processing

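The 9 higher receptors were higher at an unadjusted p under 0.05 in all 6 fits that left out 1 array and under all 4 other scalings, 8 of the 9 with probes averaged, with the slide as a block or within slide 1, and 3 with age. Across the 6 fits that left out 1 array the count of higher members was 9 to 15, where 3.1% to 8.73% of all genes were higher. The count of lower members was 3 to 10, where 9.14% to 28.7% of all genes were lower. Both the 10 and the 28.7% came without DIO array 1. Members without overlap numbered 11 to 17 higher and 8 to 12 lower. Of all genes 0 to 4057 had an adjusted p under 0.05 in limma. Genes called by adjusted p numbered 5 after normexp, 7 after spike-in scaling, 63 with signal on all 6 arrays and 26 with a trended and robust variance, and were 0 with an adjusted p under 0.1. The shift of the member median from that of all genes, 0.42, was 0.27 after normexp and 0.20 with age as a covariate. Spike-in scaling gave 21 higher and 0 lower members, where 19% and 3.46% of all genes were called higher and lower. Under it 19 and 2 members were free of overlap. The share of all genes without overlap was taken only in the fit of all 6 arrays scaled by the 75th percentile. Counts without overlap in other fits therefore have no share to stand against. Lower members numbered 5 without a filter, 3 with signal on all 6 arrays (3 without overlap) and 2 with the slide as a block. Of all genes 13.7%, 20.7% and 5.88% were then lower, in that order. With the slide as a random block 3 members were lower and with age 5, where 13.6% and 19.5% of all genes were. Higher members numbered 16 within slide 1 (22 without overlap) and 3 with age, where 5.49% and 4.63% of all genes were higher. The replicate block left 9 higher and 7 lower members, where 4.81% and 18.8% of all genes were higher and lower. It left 0 genes with an adjusted p under 0.05.

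Signs turned in the following fits. Under spike-in scaling Clec1b and Siglece had 0.07 each, Clec3b 0.05, Clec16a 0.24, Clec12b 0.13 and Cd300lg 0.44. Cd300lg had 0.26 after normexp, 0.07 after centring, and 0.02 to 0.03 when DIO_CR_WR array 1 or 2 or DIO array 1 was left out. Clec12b had 0.36 and Clec4b2 -0.01 both with the slide as a block and within slide 1. With age Clec4a1 had -0.17, Clec10a -0.28, Clec7a -0.61, Clec1a -0.27, Clec2d -0.10, Clec2i -0.62, Clec14a -0.73, Clec4b2 -0.58, Cd300lf -0.20 and Siglec5 -0.85. Without DIO_CR_WR array 2 Clec4b2 had -0.03 and Cd300e -0.36. Without DIO array 1 Clec14a had -0.03, Cd300lf -0.12, Siglec5 -0.34 and Cd300e -0.04. Over the fits without 1 array the highest values of these were 0.50 for Clec14a, 0.58 for Clec4b2, 0.29 for Cd300lf, 0.57 for Siglec5 and 0.67 for Cd300e. The cause was not tested. The lowest signal above background was higher on the DIO_CR_WR arrays, which limits the dim members.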
